A study of Mus musculus with 16 samples.

Results

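Trem2, Tyrobp, Cst7, Spp1, Gpnmb, Cd9 and Igf1 belong to the set of genes known from disease-associated microglia, and they were described in microglia and brain macrophages of mice injected with α-synuclein. The 7 genes were picked by name from 18576 genes, and RefSeq transcripts were summed per gene symbol. Adult mice received bilateral intrastriatal injections of monomeric α-synuclein (MONO, the control injection) or of preformed α-synuclein fibrils (PFF), and 2 months post-injection myeloid cells were sorted from the brain and their RNA was sequenced by SMART-seq2, a full-length method that starts from little RNA. The mice were CD163KO, which lack the haemoglobin scavenger receptor CD163 in the whole body from the tm1.1(KOMP)Vlcg allele, or WT (C57BL/6N) littermates, of both sexes and 12 weeks old at surgery. Each combination of sex, genotype and injection held 7 WT mice or 5 CD163KO mice, except 4 for male CD163KO MONO, and gave 1 table of microglia (200000 to 500000 sorted cells) and 1 of macrophages (10000 to 30000 sorted cells), 16 tables in all, each called a library here.

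Microglia were gated as CD11b+ cells with low to intermediate CD45. The macrophage gate, CD11b+ CD45high, takes in neutrophils, NK cells and infiltrating cells beside the macrophages of the brain's borders, so its libraries are mixtures. Deletion of CD163 is not limited to the brain, and every mouse carried an injection of α-synuclein, so no uninjected level is given here. The study left out male CD163KO MONO, and those 2 libraries are described below but enter none of the main tests (they enter an alternative fit and the check for distant libraries).

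TREM2 is a lipid-sensing receptor on myeloid cells that has no signalling tail of its own. It pairs with TYROBP (DAP12), an adaptor whose ITAM motif recruits the kinase SYK, and in mouse models of neurodegeneration microglia need TREM2 to pass fully from a homeostatic into the disease-associated state. Genes raised in that state include Cst7, which encodes cystatin F, an inhibitor of lysosomal cathepsins, Spp1, which encodes the secreted matrix protein osteopontin, Gpnmb, a membrane glycoprotein of lysosomes and phagosomes, Cd9, a tetraspanin of the plasma membrane, and Igf1, a secreted growth factor. Several of them are also used by macrophages outside the brain parenchyma.

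The genes lie on 6 chromosomes of the mouse genome (coordinates of GRCm38). The receptor pair lies at chr17:48346401-48352276 (Trem2, forward strand) and chr7:30413782-30417582 (Tyrobp). The secreted factors lie at chr5:104435111-104441053 (Spp1), chr10:87858265-87937047 (Igf1) and chr2:150570415-150578944 (Cst7), and the membrane proteins at chr6:49036518-49058182 (Gpnmb) and chr6:125460266-125494760 (Cd9). The promoters of 3 genes are shown, chosen after their values were seen as those that differ between the sorted populations at a high level. They are the 250 bases before the RefSeq start (GRCm38), written 5′ to 3′ on the strand of the gene, at chr17:48346151-48346400 (forward strand) for Trem2, chr6:125494761-125495010 (reverse strand) for Cd9 and chr5:104434861-104435110 (forward strand) for the upstream start of Spp1, with GAGGAA or its reverse complement TTCCTC in capitals, the core of sites bound by PU.1, a factor that all myeloid cells need.
Trem2 promoter: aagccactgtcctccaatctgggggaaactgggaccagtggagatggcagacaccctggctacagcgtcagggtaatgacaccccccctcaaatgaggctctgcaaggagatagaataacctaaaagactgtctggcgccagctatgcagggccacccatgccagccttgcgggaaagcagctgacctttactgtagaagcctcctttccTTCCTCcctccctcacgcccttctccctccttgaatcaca
Cd9 promoter: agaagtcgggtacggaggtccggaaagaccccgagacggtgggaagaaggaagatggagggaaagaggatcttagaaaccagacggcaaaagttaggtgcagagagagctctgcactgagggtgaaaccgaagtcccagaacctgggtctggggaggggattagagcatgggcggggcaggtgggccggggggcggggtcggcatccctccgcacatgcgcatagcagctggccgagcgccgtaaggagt
Spp1 promoter: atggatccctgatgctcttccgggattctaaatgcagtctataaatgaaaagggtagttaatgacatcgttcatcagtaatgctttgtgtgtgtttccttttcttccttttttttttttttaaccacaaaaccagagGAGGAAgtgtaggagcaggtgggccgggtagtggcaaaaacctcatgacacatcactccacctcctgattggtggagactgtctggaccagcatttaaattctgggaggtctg
The promoters of Trem2 and Spp1 each held 1 match and the Cd9 promoter held 0. Of 32851 mouse promoters of the same length, 23.3% held at least 1, so a match in such a window is common, and it is a description of the letters and not of a bound site.

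Depth was 12170686 to 21433841 estimated counts in macrophages. In microglia the 2 WT MONO libraries held 8648751 and 8716300 counts and the other 6 held 16110256 to 18768238, so depth in microglia goes with WT MONO. The markers fitted the sort in part. Summed over 6 microglia markers, FPKM (fragments scaled to transcript length and library size, a level per length) was 11923 to 38181 in microglia and 815 to 1418 in macrophages, whereas 10 neutrophil markers summed to 22072 to 134257 in macrophages and 867 to 2684 in microglia. Cd163 had 748 to 5275 counts in WT and 0 to 1 in CD163KO macrophages, and 0 to 101 in WT and 5 to 23 in CD163KO microglia. Male WT PFF and male CD163KO MONO stood apart in both populations: a single gene, Cst3, took 32.2% to 34.5% of FPKM in these 2 microglia libraries and 10.9% to 12.9% in the other 6, and Mrc1, a marker of border-associated macrophages, was at 319 and 412 FPKM in these 2 macrophage libraries and at 50.1 to 135 in the others. The female CD163KO MONO microglia library held 799 counts of Y-linked genes and the other female libraries at most 2. Whether cells or labels of these libraries were mixed was not tested. The population, treatment, genotype and sex fits were therefore also run without male WT PFF and female CD163KO MONO. The interaction fit was not, and shares of genes with groups that do not overlap were not computed without female CD163KO MONO. The tests scale counts by TMM, which sets the bulk of genes in each library to a common level, and FPKM do not. TMM factors were 0.288 in male WT PFF, 0.554 in male CD163KO MONO and 1.32 to 1.44 in the other 6 microglia libraries, and 1.94, 2.29 and 0.479 to 1.28 in the macrophage libraries, so an order of libraries can differ between FPKM and TMM-scaled CPM (counts scaled to the library total and divided by the factor). For many of the orders described, values on both scales are given, a choice made after the values were seen, and an order given in FPKM alone holds for FPKM alone.

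**Figure D1:**
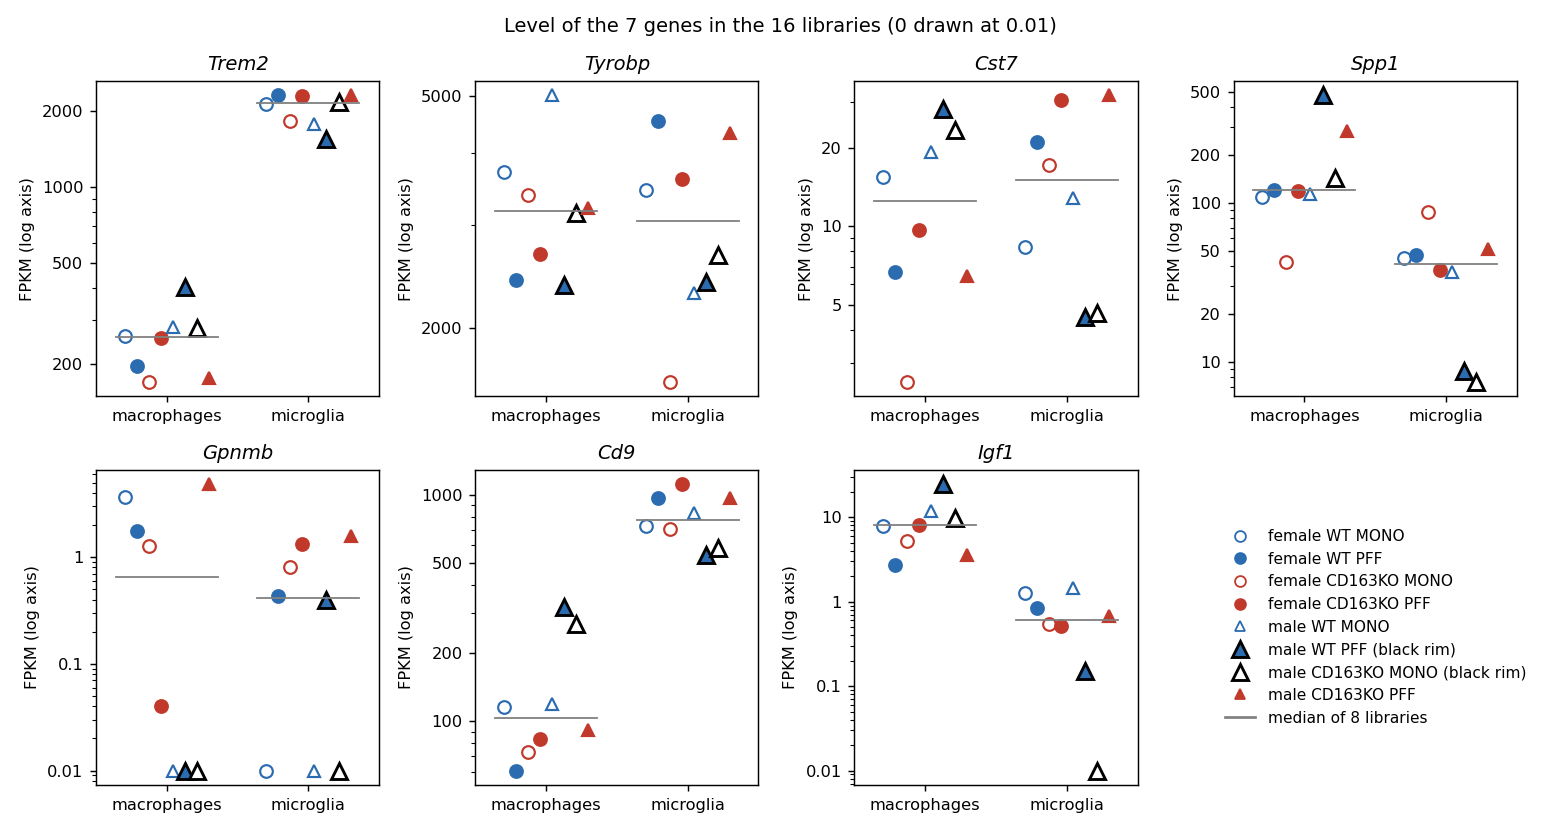
Level of each of the 7 genes in FPKM (log axis, 0 drawn at 0.01) in the 8 macrophage and 8 microglia libraries, 1 point per library. Circles are female and triangles male, blue is WT and red CD163KO, open is MONO and filled PFF, grey lines are medians, and black rims mark male WT PFF and male CD163KO MONO, whose FPKM were low for Spp1 and Cst7 in microglia. Trem2 and Cd9 were higher in each microglia library than in any macrophage library.

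In microglia, the receptor pair and Cd9 were abundant, Spp1 and Cst7 were at an intermediate level, and Igf1 and Gpnmb were near the limit of detection. Median levels over the 8 microglia libraries were 3052 FPKM for Tyrobp, 2143 FPKM for Trem2, 779 FPKM for Cd9, 41.5 FPKM for Spp1, 15.0 FPKM for Cst7, 0.62 FPKM for Igf1 and 0.42 FPKM for Gpnmb. Of neighbours in this order, Trem2 and Cd9, Cd9 and Spp1, and Cst7 and Igf1 had ranges that did not overlap. Tyrobp exceeded Trem2 in 7 of 8 libraries, and Spp1 exceeded Cst7 within each of the 8 although their ranges overlapped, whereas Igf1 exceeded Gpnmb in 3 of 8.

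Macrophage libraries had a different order. Tyrobp was again highest with a median of 3176 FPKM, followed by Trem2 at 257, Spp1 at 120.1, Cd9 at 104, Cst7 at 12.5, Igf1 at 8.0 and Gpnmb at 0.66 FPKM. The ranges of Tyrobp and Trem2 and those of Cd9 and Cst7 did not overlap. Spp1 exceeded Cd9 in 4 of 8 libraries, so these neighbours did not differ beyond their spread, and Trem2 exceeded Spp1 in 6 of 8. The ratio of receptor to adaptor differed between the populations: Trem2 stood at 50.6% to 113% of the Tyrobp level (FPKM) in microglia, with a median of 64.2%, and at 5.03% to 17%, with a median of 7.56%, in macrophages. In bulk RNA, fewer cells of a type and less RNA per cell cannot be told apart.

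The comparison of microglia with macrophages asks which of the genes belong to which sorted population, whatever the mouse received. Trem2 and Cd9 were higher in microglia, and Spp1 and Igf1 were higher in macrophages. These 4 of the 7 genes passed the test, edgeR's quasi-likelihood test over 7 pairs of libraries with an adjusted p (Benjamini-Hochberg) of at most 0.05 and a log2 fold change of at least 1, as did 16.9% of the 13700 genes tested. Tyrobp, Cst7 and Gpnmb did not pass. Each pair is 1 combination of sex, genotype and injection, so the p-values rest on the spread between combinations.

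Trem2, the receptor, had between 1553 and 2301 FPKM in microglia (median 2143) and between 170.2 and 403 FPKM in macrophages (median 257). The ranges did not overlap, and in FPKM microglia exceeded the macrophages of the same combination in 8 of 8 pairs. On the count scale after TMM scaling, Trem2 was 3.15-fold higher in microglia (log2 fold change 1.66, SE 0.32, n = 7 pairs, adjusted p = 0.00339 by edgeR). Library totals alone gave a log2 fold change of 3.08, because that choice moves the median gene from 0.37 to 1.96. Relative to the median gene, the difference was 1.28 with TMM and 1.12 without it.

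Tyrobp, the adaptor, is also used by neutrophils and NK cells through other receptors. It ranged from 1613 to 4540 FPKM in microglia (median 3052) and from 2364 to 5015 FPKM in macrophages (median 3176). The ranges overlapped, and microglia were higher in 4 of 8 pairs. After TMM scaling the log2 fold change was -1.56 (SE 0.50, adjusted p = 0.0506 by edgeR), just short of the threshold, and without the male WT PFF pair it was -1.97 with an adjusted p of 5.61e-05. With library totals the log2 fold change was -0.07 (adjusted p = 0.867 by edgeR). That scaling moves the median gene as well, and relative to the median gene Tyrobp stood at -1.94 with TMM and -2.03 with library totals.

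Spp1 (osteopontin) ranged from 42.6 to 475 FPKM in macrophages (median 120.1) and from 7.49 to 87.6 FPKM in microglia (median 41.5). The ranges overlapped, since the highest microglia level and the lowest macrophage level both came from female CD163KO MONO mice, whose microglia library held the Y-linked counts. In the other 7 of 8 pairs macrophages were higher, with differences down to -5.61 (microglia minus macrophages) on the log2(FPKM + 1) scale. Spp1 fell by 3.29 on the log2 scale from macrophages to microglia (SE 0.41, adjusted p = 0.000192 by edgeR), and by 3.62 without the female CD163KO MONO pair. With library totals it fell by 1.76, and relative to the median gene it stood at -3.67 with TMM and -3.71 with library totals.

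Igf1, the growth factor, ranged from 2.69 to 24.7 FPKM in macrophages (median 8.0), on 408 to 3198 estimated counts. In microglia it ranged from 0.01 to 1.45 FPKM (median 0.62), on 1 to 95 counts. The 2 ranges did not overlap. Igf1 fell by 4.85 on the log2 scale from macrophages to microglia (SE 0.35, adjusted p = 4.19e-06 by edgeR), the difference with the smallest p of the 7 genes. With library totals it fell by 3.28, and relative to the median gene it stood at -5.22 with TMM and -5.24 with library totals. It was lower in microglia in 8 of 8 pairs.

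Cst7 (cystatin F), which neutrophils and NK cells are also known to express, ranged from 4.47 to 31.8 FPKM in microglia (median 15.0) and from 2.53 to 28.1 FPKM in macrophages (median 12.5). The ranges were nearly the same, and microglia were higher in 4 of 8 pairs. The log2 fold change was -0.77 (SE 0.56, adjusted p = 0.366 by edgeR) with TMM and 0.71 with library totals, and relative to the median gene it was -1.14 and -1.25.

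Cd9, the tetraspanin, ranged from 541 to 1119 FPKM in microglia (median 779) and from 60.6 to 319 FPKM in macrophages (median 104). The ranges did not overlap. Male WT PFF and male CD163KO MONO mice held the 2 highest macrophage and the 2 lowest microglia levels in FPKM. In TMM-scaled CPM they held the 2 highest microglia levels instead, at 2354 and 1333 beside 632 to 1058, and in macrophages they lay at 208 and 147 beside 116 to 191. Cd9 was 2.94-fold higher in microglia (log2 fold change 1.56, SE 0.24, adjusted p = 0.000723 by edgeR), with a log2 fold change of 1.42 without the male WT PFF pair. With library totals the log2 fold change was 2.99, and relative to the median gene it was 1.18 with TMM and 1.03 with library totals.

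Gpnmb, the lysosomal glycoprotein, had few reads. Macrophages held 0, 0, 0, 2, 59, 142, 193 and 385 counts and microglia 0, 0, 1, 26, 28, 49, 85 and 95 counts. Both populations thus had libraries at 0 beside libraries with well over a few reads. The level was at most 4.84 FPKM, and the log2 fold change of -2.59 had an SE of 2.32 (adjusted p = 0.474 by edgeR), so it did not pass the test.

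**Figure D2:**
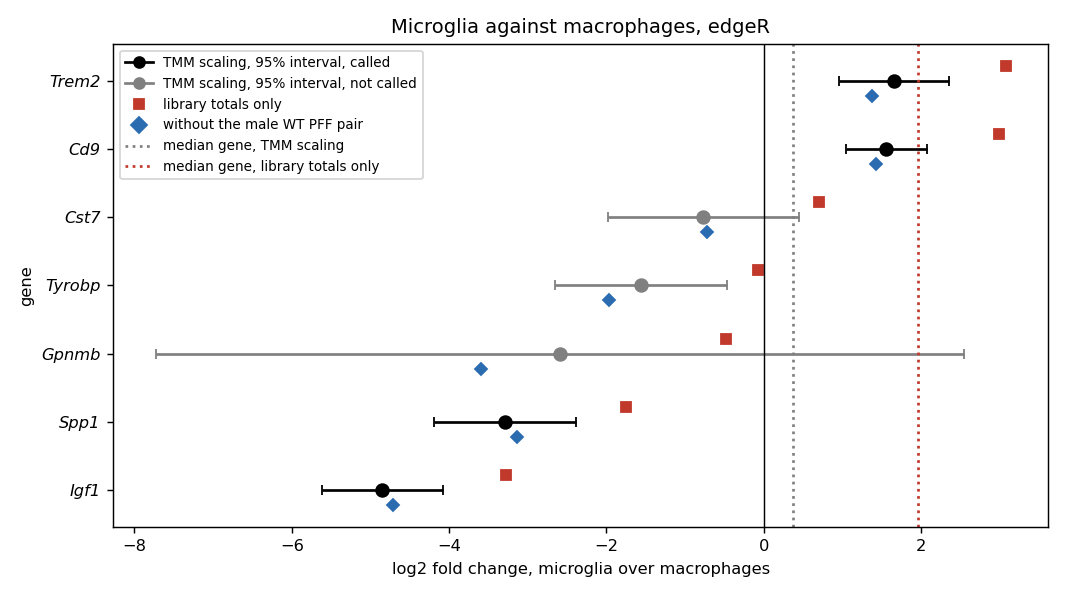
Log2 fold change of microglia over macrophages (edgeR, 7 pairs) for the 7 genes: circles with 95% confidence intervals for TMM scaling (black where called, grey where not), red squares for library totals only and blue diamonds without the male WT PFF pair, with dotted lines at the median gene of each scaling. Trem2 and Cd9 lie above 0 and Spp1 and Igf1 below 0 in all 3. Cst7 lies to the left of the median gene with either scaling.

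Genes with related roles were counted in the same test, beside a median log2 fold change of 0.37 and 16.9% called, in either direction, over all genes. Of 23 further genes raised in disease-associated microglia, 2 were higher in microglia (the cathepsins Ctsl, log2 fold change 2.15, and Ctsd, 2.00) and 15 were lower, among them Lyz2 (-7.74), the lipid carrier Apoe (-6.51) and the receptor Axl (-2.68), with a list median of -2.47. Lyz2 is also a gene of neutrophils and monocytes, whose markers were lower in microglia for 10 of 10 and 6 of 6 genes. Of 12 homeostatic microglia genes, 10 were higher in microglia and 0 lower (median 2.94), including Sall1 (7.16), Tmem119 (4.38) and P2ry12 (4.14). Trem2 and Cd9 thus stood with the homeostatic genes in direction, and Spp1 and Igf1 with most of the further disease-associated genes. The part of the other cell types of the macrophage gate in these differences was not tested.

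Partners of the 7 genes moved in both directions. Of 13 genes of TREM2 and TYROBP signalling, 6 were higher in microglia, among them Card9 (log2 fold change 3.99), the phosphatase gene Inpp5d (1.74), the kinase gene Btk (1.57) and Adam10 (1.52), whose protease sheds TREM2. In the same list 3 were lower, Ms4a4a (-7.83), Ms4a6d (-2.01) and Hcst (-2.36), which encodes DAP10, a further adaptor of TREM2. Of 9 integrins and other receptors for osteopontin and GPNMB, Itgb3 (4.20) and Itgb5 (2.61) were higher and Cd44 (-5.37), Itga4 (-2.85) and Sdc4 (-2.32) lower in microglia. In the lists nearest to Igf1, Cst7 and Cd9, 1 of 12 genes of the IGF axis was lower (Igfbp4, -3.53), 1 of 7 cathepsins and cystatins was higher (Ctsl) and 2 lower (Ctsc, -2.92, the cathepsin held in check by cystatin F, and Cstb, -1.87), and 1 of 9 tetraspanins was lower (Cd63, -1.57). Of 9 lysosomal genes and MITF family factors, Tfe3 (1.16) was higher and Tfec (-4.92) and Lamp1 (-3.45) were lower.

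The comparison of PFF with MONO asks whether fibrils change these genes in each population. None of the 7 genes passed the test in microglia, and neither did any of the 12736 genes tested (0% called). An unadjusted p under 0.05 was held by 769 genes, 6.04% of those tested, and DESeq2 called 26. In macrophages 0 of 7 genes and 0 of 11985 (0%) passed, with 125 (1.04%) at an unadjusted p under 0.05 and 8 called by DESeq2. Each fit had 7 libraries with terms for treatment, genotype and sex. Values of single genes follow as descriptions of these libraries.

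In microglia, Trem2, Tyrobp, Cst7 and Cd9 had higher levels in 4 of the 4 PFF libraries than in the 3 MONO libraries in TMM-scaled CPM, and in 3 of the 4 in FPKM, where male WT PFF was the exception. Trem2 stood at 1828 FPKM in female CD163KO, 2127 in female WT and 1769.5 in male WT mice given MONO, and at 2288 in female CD163KO, 2299 in female WT, 2301 in male CD163KO and 1553 in male WT mice given PFF. The 3 PFF libraries other than male WT lay above the 3 MONO libraries, and male WT PFF lay below them in FPKM. In TMM-scaled CPM the order of that library turned round: MONO libraries lay at 1329 to 1539, the 3 other PFF libraries at 1786 to 1815 and male WT PFF at 5614. The excluded male CD163KO MONO library lay at 4117 on that scale. The log2 fold change was 0.79 (SE 0.65, adjusted p = 0.832 by edgeR).

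Tyrobp stood at 1613 FPKM in female CD163KO, 3444 in female WT and 2298 in male WT microglia after MONO, and at 3603 in female CD163KO, 4539.7 in female WT, 4319 in male CD163KO and 2394 in male WT microglia after PFF. PFF exceeded MONO in each pair of the same sex and genotype, in 4 of 4 counting male CD163KO MONO at 2661 FPKM, by 0.06 to 1.16 on the log2(FPKM + 1) scale. The groups overlapped in FPKM, since male WT PFF lay below female WT MONO. In TMM-scaled CPM they did not, with 647 to 1256 after MONO and 1444 to 1777 after PFF beside 4391 in male WT PFF, although male CD163KO MONO lay at 2608. With a log2 fold change of 1.33 (SE 0.59), an unadjusted p of 0.0483 and an adjusted p of 0.777 by edgeR, Tyrobp did not pass the test.

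Cd9 and Cst7 were arranged like Trem2 in FPKM, with male WT PFF below male WT MONO and PFF higher in 3 of 4 pairs. Cd9 in microglia stood at 707, 729 and 829.8 FPKM after MONO (female CD163KO, female WT, male WT) and at 1119, 975, 969.6 and 541 FPKM after PFF (female CD163KO, female WT, male CD163KO, male WT). Cst7 in microglia stood at 17.1, 8.31 and 12.9 FPKM after MONO and at 30.4, 21.1, 31.8 and 4.47 FPKM after PFF, in the same order of groups. In both genes male WT PFF was the lowest of the 7 libraries in FPKM and the other 3 PFF libraries were the highest 3. In TMM-scaled CPM male WT PFF was the highest of the 7 for Cd9, at 2354 beside 632 to 749 after MONO and 909.9 to 1058 in the other PFF libraries. For Cst7 it stood at 14.5, beside 5.35 to 12.0 after MONO and 14.6 to 22.3 in the other PFF libraries. Log2 fold changes were 0.86 (SE 0.51, adjusted p = 0.784 by edgeR) for Cd9 and 0.97 (SE 0.47, adjusted p = 0.777) for Cst7.

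With the male WT PFF library counted, 0 of the 7 genes had PFF microglia libraries all above the MONO libraries in FPKM, beside 0.848% of genes with at least 1 FPKM in 1 of these libraries. In TMM-scaled CPM Trem2, Tyrobp, Cst7 and Cd9 did, 4 of 7, beside 5.74% of these genes. Without male WT PFF the same 4 did on both scales, beside 6.89% of genes in FPKM and 8.87% in TMM-scaled CPM. Male WT PFF is 1 of the libraries that stood apart through Cst3, and its omission was chosen after its values were seen. Male CD163KO MONO, which the study excluded, resembled it in FPKM, with 4.65 for Cst7 and 582 for Cd9, so in the pair of male CD163KO microglia PFF exceeded MONO by 2.54 for Cst7 on the log2(FPKM + 1) scale. In TMM-scaled CPM that pair kept its order for Cst7 (22.3 after PFF, 7.93 after MONO) and turned round for Cd9 (918 after PFF, 1333 after MONO), as it did for Trem2 and Tyrobp, so with this library counted 0 of these 3 genes had PFF libraries all above MONO on that scale. The part of the Cst3 share in these levels was not tested.

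The other 3 genes had PFF and MONO microglia libraries that overlapped. Spp1 stood at 87.6, 45.0 and 37.0 FPKM after MONO and at 38.1, 46.8, 51.1 and 8.75 FPKM after PFF, in the order of groups given above, and PFF was higher in 2 of 4 pairs in FPKM. In TMM-scaled CPM male WT microglia also had more Spp1 after PFF (41.9) than after MONO (36.7). Igf1 stood at 0.55, 1.26 and 1.45 FPKM after MONO and at 0.52, 0.84, 0.68 and 0.15 FPKM after PFF. PFF lay below MONO in 3 of 3 pairs of the test, also in TMM-scaled CPM (2.92 to 2.77, 6.07 to 4.42 and 7.28 to 3.71 from MONO to PFF), and above it in male CD163KO, where MONO held 1 count. Its log2 fold change was -0.41 (SE 1.01, adjusted p = 0.967 by edgeR). In the same microglia libraries, the summed FPKM of 10 markers of border-associated macrophages moved as Igf1 did from MONO to PFF. The sum fell from 96.2 to 94.6 in female CD163KO, 158 to 131 in female WT and 169 to 28.9 in male WT. In male CD163KO it rose from 52.2 to 101.7. The part of border-associated macrophages in the Igf1 level of microglia libraries was not tested. Gpnmb was listed at 0 in both WT MONO libraries, the shallowest of the microglia, and had 49 counts in female CD163KO MONO, against 85, 26, 95 and 28 counts after PFF. PFF counts of Gpnmb exceeded MONO in each pair of the same sex and genotype, yet female CD163KO MONO held more than either WT PFF library, and the log2 fold change of 3.57 had an SE of 2.42 (adjusted p = 0.80 by edgeR).

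In macrophages, Spp1 stood higher after PFF on both scales. It was at 42.6 FPKM in female CD163KO, 108 in female WT and 114 in male WT macrophages after MONO, and at 119 in female CD163KO, 121 in female WT, 283 in male CD163KO and 475 in male WT macrophages after PFF. All 4 PFF libraries lay above the 3 MONO libraries, an arrangement held by 1 of the 7 genes and by 0.186% of genes with at least 1 FPKM in 1 of these libraries (0.482% without male WT PFF). In TMM-scaled CPM the 4 PFF libraries also lay above, at 181 to 649 beside 89.0 to 145 after MONO, as in 2.10% of genes. PFF exceeded MONO in 4 of 4 pairs of the same sex and genotype, by 0.16 to 2.05 on the log2(FPKM + 1) scale, although the excluded male CD163KO MONO library, at 144 FPKM, lay above both female PFF libraries in FPKM, and at 86.9 in TMM-scaled CPM below all PFF libraries. The log2 fold change was 1.55 (SE 0.47, 95% interval 0.47 to 2.63), with an unadjusted p of 0.0107 and an adjusted p of 1 by edgeR. Spp1 therefore did not pass the test across all genes.

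Tyrobp in macrophages went the other way in FPKM. It stood at 3387, 3697 and 5015 FPKM after MONO (female CD163KO, female WT, male WT) and at 2676, 2415, 3207 and 2364 FPKM after PFF (female CD163KO, female WT, male CD163KO, male WT). All PFF libraries lay below the MONO libraries, as in 5.92% of genes with at least 1 FPKM in 1 of these libraries, while male CD163KO MONO, at 3145 FPKM, lay among them. In TMM-scaled CPM the groups overlapped, with 1899 to 2698 after MONO and 663 to 2812 after PFF. The fit gave a log2 fold change of -0.22 (SE 0.57, adjusted p = 1 by edgeR). Neutrophil markers summed to 98488, 120629 and 118126 FPKM after MONO and at 32753, 22072, 134257 and 70359 FPKM after PFF. The sums were lower after PFF in 3 libraries, whereas male CD163KO PFF had the highest sum of all with Tyrobp below the MONO libraries. Their part in the Tyrobp level was not tested.

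Trem2, Cst7, Cd9 and Igf1 in macrophages overlapped between PFF and MONO. In FPKM each had its highest level in male WT PFF, at 403 for Trem2, 28.1 for Cst7, 319 for Cd9 and 24.7 for Igf1, where the Mrc1 level was also high, and female WT mice had PFF below MONO for Trem2 (196 vs. 259 FPKM), Cst7 (6.65 vs. 15.4), Cd9 (60.6 vs. 116) and Igf1 (2.69 vs. 7.85). In TMM-scaled CPM male WT PFF was still the highest for Cd9 (208) and Igf1 (90.0) but lay at 221 for Trem2, the lowest of the 7 libraries, and at 13.7 for Cst7, below both WT MONO libraries. Female WT PFF then lay above female WT MONO for Trem2 (429.7 vs. 262) and Cd9 (159.8 vs. 141) and below it for Cst7 (13.05 vs. 13.98) and Igf1 (39.7 vs. 54.0). Without male WT PFF, Trem2 had all PFF macrophage libraries above the MONO libraries in TMM-scaled CPM, at 292 to 429.7 and 226 to 268, as Spp1 did, beside 4.67% of genes, but not in FPKM. Fitted log2 fold changes of these 4 genes lay between 0.01 (Igf1) and 0.50 (Cst7), each with an adjusted p of 1. Gpnmb was at 1.27, 3.70 and 0 FPKM after MONO and at 0.04, 1.76, 4.84 and 0 FPKM after PFF.

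**Figure D3:**
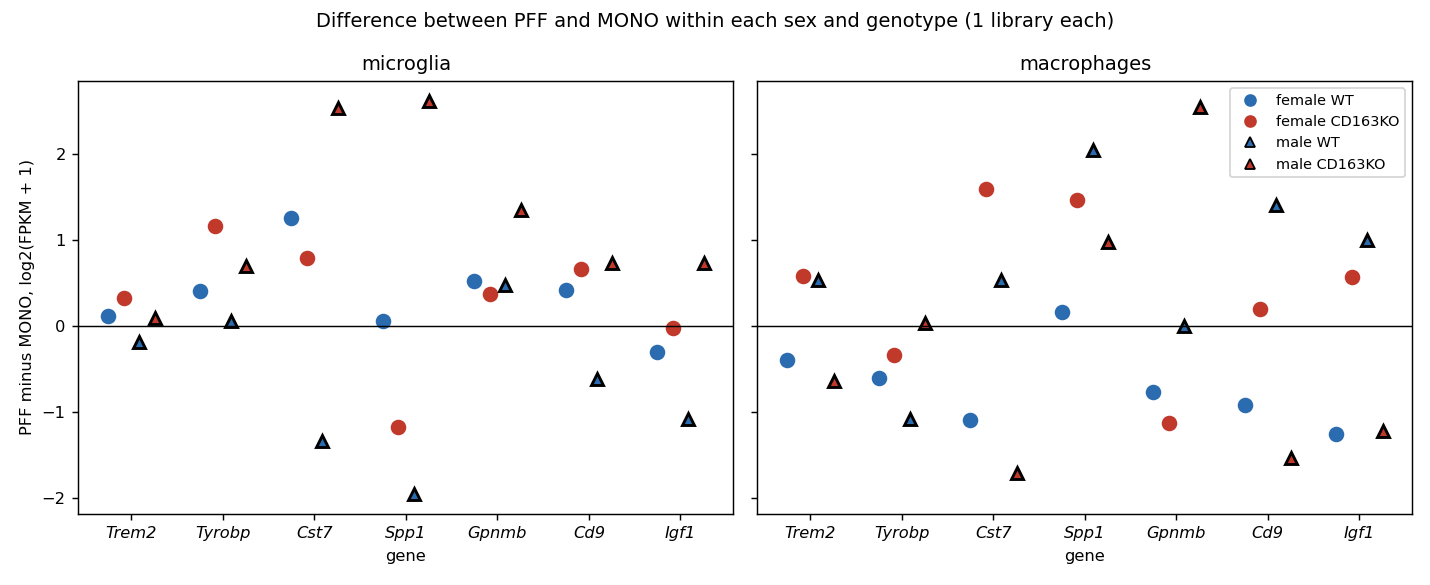
Difference between the PFF and the MONO library of the same sex and genotype, on the log2(FPKM + 1) scale, for the 7 genes in microglia and macrophages, 1 point per pair and no error bars. Circles are female and black-rimmed triangles male, blue is WT and red CD163KO, and the male CD163KO points use the MONO libraries that the study excluded. All 4 points lie above 0 for Tyrobp and Gpnmb in microglia and for Spp1 in macrophages, and none of the 7 genes passed the test across all genes.

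None of the genes on the lists around the 7 passed the test of PFF against MONO. The median log2 fold change of the 23 further disease-associated genes was 0.92 in microglia, beside 0.13 over all genes, and that of the 12 homeostatic genes was 0.75. In macrophages these medians were 0.06 and 0.37 beside -0.11 over all genes. The microglia fit includes male WT PFF, with a TMM factor of 0.288 beside 1.32 to 1.44 in the other libraries of the test. Medians of the lists were not computed without that library, and its part in them was not tested. Values of single genes in microglia were 1.08 for Clec7a (SE 0.33, unadjusted p = 0.00839, adjusted p = 0.777 by edgeR), 2.03 for the integrin gene Itgax (adjusted p = 0.777) and 1.75 for Apoe (adjusted p = 0.784).

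The comparison of CD163KO with WT asks whether loss of CD163 alters the genes. None of the 7 passed in microglia, as in 0% of 12736 genes (168, or 1.32%, at an unadjusted p under 0.05, 3 called by DESeq2). None passed in macrophages, where the single gene called was Cd163 itself, 0.00834% of 11985 genes (80, or 0.668%, at an unadjusted p under 0.05, 2 called by DESeq2).

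Of the 7 genes, 6 had a higher mean FPKM in the CD163KO than in the WT microglia of the test, and Igf1 a lower one. The median gene was also higher in CD163KO on the log2(FPKM + 1) scale, by 0.357 with limma, beside -0.04 with TMM scaling. With TMM scaling the fitted log2 fold changes of Trem2, Tyrobp, Cd9 and Igf1 lay below 0. Cst7 was at 17.1, 30.4 and 31.8 FPKM in CD163KO (female MONO, female PFF, male PFF) and at 8.31, 21.1, 12.9 and 4.47 FPKM in WT microglia (female MONO, female PFF, male MONO, male PFF), or 26.4 ± 8.08 (SD, n = 3) vs. 11.7 ± 7.16 (SD, n = 4). CD163KO exceeded WT in each of the 3 pairs of the same sex and injection that the test used, whereas the excluded male CD163KO MONO library, at 4.65 FPKM, lay below male WT MONO. Female CD163KO MONO, the library with the Y-linked counts, lay below female WT PFF, so the groups overlapped. The log2 fold change was 0.69 (SE 0.47, adjusted p = 1 by edgeR).

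Cst7 in macrophages lay the other way, at 6.21 ± 3.56 FPKM (SD, n = 3) in CD163KO and 17.4 ± 8.89 FPKM (SD, n = 4) in WT. The groups overlapped in FPKM. In TMM-scaled CPM CD163KO lay at 3.55 to 9.99 and WT at 13.05 to 13.98, below as in 1.49% of genes with at least 1 FPKM in 1 of these libraries. The fit gave -0.97 on the log2 scale (SE 0.93, adjusted p = 1 by edgeR). Male CD163KO MONO macrophages, outside the test, held 23.3 FPKM, more than 3 of the 4 WT libraries, and 9.52 in TMM-scaled CPM. Whether the genotype difference of Cst7 differs between the populations was not tested.

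Gpnmb in microglia was at 0.80, 1.32 and 1.57 FPKM in CD163KO and at 0, 0.43, 0 and 0.40 FPKM in WT. These groups did not overlap, on 49 to 95 counts in CD163KO and 0 to 28 counts in WT, as in 3.15% of genes with at least 1 FPKM in 1 of these libraries, but the 2 WT libraries at 0 were the shallowest and the excluded male CD163KO MONO library held 1 count. In TMM-scaled CPM the groups overlapped, since male WT PFF, at 5.19, lay above the CD163KO libraries, at 2.24 to 4.46, and without that library they did not, as in 4.40% of genes. The fitted log2 fold change of 3.01 had an SE of 2.30 (adjusted p = 1 by edgeR). Trem2 and Tyrobp overlapped between genotypes. Trem2 was at 2139 ± 269 FPKM (SD, n = 3) in CD163KO and 1937 ± 338 FPKM (SD, n = 4) in WT microglia, and Tyrobp at 3179 ± 1402 FPKM and 3169 ± 1051 FPKM. Fitted log2 fold changes lay below 0, at -0.49 (SE 0.64) for Trem2 and -0.81 (SE 0.56) for Tyrobp, both with an adjusted p of 1 by edgeR.

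Igf1 in microglia was at 0.55, 0.52 and 0.68 FPKM in CD163KO and at 1.26, 0.84, 1.45 and 0.15 FPKM in WT, and only male WT PFF lay below the CD163KO libraries. In TMM-scaled CPM all CD163KO libraries lay below the WT libraries, at 2.77 to 3.61 and 3.71 to 7.28, as in 1.63% of genes. On few counts, its log2 fold change was -0.67 (SE 1.02, adjusted p = 1 by edgeR). The 10 markers of border-associated macrophages, Cd163 among them, were arranged like Igf1 in FPKM. They summed to 94.6 to 101.7 in CD163KO microglia, 28.9 in male WT PFF and 131 to 169 in the other WT libraries. The part of border-associated macrophages in the order of Igf1 between genotypes was not tested. Spp1 was at 58.9 ± 25.7 FPKM (SD, n = 3) in CD163KO and 34.4 ± 17.6 FPKM (SD, n = 4) in WT microglia (log2 fold change 0.47, SE 0.33), and Cd9 at 932 ± 209 FPKM and 769 ± 182 FPKM (log2 fold change -0.33, SE 0.52), each with an adjusted p of 1 by edgeR and overlapping groups.

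Spp1 and Igf1 in macrophages, the population with the higher levels, overlapped widely between genotypes. Spp1 was at 148 ± 122.99 FPKM (SD, n = 3) in CD163KO and 205 ± 180.3 FPKM (SD, n = 4) in WT macrophages, with a log2 fold change of -0.10 (95% interval -1.11 to 0.92). Igf1 was at 5.62 ± 2.33 FPKM and 11.8 ± 9.40 FPKM, with a log2 fold change of -0.13 (95% interval -1.17 to 0.91). For Trem2 and Cd9 in macrophages the log2 fold changes were -0.07 and -0.09. The intervals leave room for changes of about a log2 unit either way.

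Whether PFF acted differently in CD163KO and WT mice was tested with an interaction term. The CD163KO MONO group of this fit is 1 library, female CD163KO MONO, and without it the term cannot be fitted. In microglia that is the library with the Y-linked counts. None of the 7 genes passed in microglia, where 0.0351% of 14225 genes did (5 genes, 29 by DESeq2), or in macrophages, where 0% of 13016 genes did (59 at an unadjusted p under 0.05, 16 by DESeq2). In microglia the largest log2 differences of effects were those of Gpnmb (-8.21, SE 4.13) and Spp1 (-1.17, SE 0.67). Both WT MONO libraries held 0 counts of Gpnmb, so its effect in WT is a fold over 0. Leaving out female WT PFF made 3377 genes pass in macrophages, Gpnmb among them (adjusted p = 1.06e-05 by edgeR), in a fit with a single residual degree of freedom.

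Male and female libraries were compared in the same way. None of the 7 genes passed in microglia (0% of 12736 genes, 215 or 1.69% at an unadjusted p under 0.05, 20 by DESeq2) or in macrophages (0% of 11985 genes, 154 or 1.28% at an unadjusted p under 0.05, 17 by DESeq2). Trem2 was at 2135 ± 219 FPKM (SD, n = 4) in female microglia, the library with Y-linked counts among them, and at 1874 ± 385 FPKM (SD, n = 3) in male microglia, whereas the fitted log2 fold change of male over female was 0.45 (SE 0.69, adjusted p = 1 by edgeR). Spp1 was at 97.8 ± 37.2 FPKM (SD, n = 4) in female and 291 ± 181 FPKM (SD, n = 3) in male macrophages, where male CD163KO PFF and male WT PFF lay above all 4 female libraries and male WT MONO among them. In TMM-scaled CPM male WT PFF, at 340.4, lay below female WT PFF, at 351. The log2 fold change was 0.56 (SE 0.44, adjusted p = 1 by edgeR).

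Trem2 and Igf1 each have RefSeq transcripts that differ by a short coding insert, and the tables give each transcript its own estimate. The longer Trem2 transcript (NM_001272078) carries 55 bases at the start of exon 4 of 5 that NM_031254 lacks. The longer Igf1 transcript (NM_010512) carries a whole exon of 52 bases, exon 4 of 5, that NM_001111275 lacks. Neither length is a multiple of 3, so the reading frame after the insert differs. The inserts are shown in capitals, on the forward strand, at chr17:48351691-48351745 and chr10:87915298-87915349 (GRCm38).
Trem2 insert: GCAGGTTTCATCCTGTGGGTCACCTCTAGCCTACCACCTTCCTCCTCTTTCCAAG
Igf1 insert: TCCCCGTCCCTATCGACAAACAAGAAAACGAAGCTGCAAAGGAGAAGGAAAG

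The Trem2 transcript with the insert was the minor one in all 16 libraries. Its share of Trem2 FPKM was 9.03% to 17.1% in microglia (median 12.6%) and 5.98% to 24.1% in macrophages (median 8.5%). Male WT PFF and male CD163KO MONO held the 2 lowest microglia shares, 9.03% and 9.26%, and the 2 highest macrophage shares, 24.1% and 13.5%. Over 7 pairs the share was 12.9 ± 2.50% (SD) in microglia and 10.1 ± 6.35% (SD) in macrophages, higher in microglia in 6 of 7, with p = 0.422 in an exact two-sided sign-flip permutation test (smallest possible p 0.0156). Without male WT PFF it was 13.6 ± 2.00% and 7.71 ± 1.46%, a difference of 5.86 percentage points, higher in microglia in 6 of 6 pairs with an exact permutation p of 0.0312, the smallest possible with 6 pairs. Without female CD163KO MONO as well, it was higher in microglia in 5 of 5 pairs (exact permutation p = 0.0625, again the smallest possible). The test and the pairs left out were chosen after the values were seen. Of the 7 pairs, male WT PFF is the 1 that ran against the others. Leaving it out fixed the p at its smallest possible value. The excluded male CD163KO MONO pair ran the same way as male WT PFF, at 9.26% in microglia and 13.5% in macrophages. The shares are RSEM estimates of reads that both transcripts could have given. In male WT PFF macrophages, 1970.9 of 7855 estimated counts, or 25.1% (95% Wilson interval 24.2% to 26.1%, counting error only), went to the transcript with the insert.

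The Igf1 transcript with the extra exon took 26.1% to 29.4% of Igf1 counts in macrophages of male WT MONO, female WT MONO, female CD163KO MONO and female CD163KO PFF mice. It took 20.9% in male CD163KO PFF, 16.2% in male CD163KO MONO and 7.14% (95% Wilson interval 4.99% to 10.02%) in female WT PFF macrophages. In male WT PFF, the library with the most Igf1, 0 of 3198 counts went to it. By counting error only, that allows a share of up to 0.0938% by the limit of 3 counts (0.12% by the Wilson interval). This library listed 9524 transcripts, beside 11800 to 16626 in the other macrophage libraries. Whether the transcript was absent from these cells was not tested. Igf1 counts in microglia (1 to 95) were too few to compare transcripts. Spp1 came mainly from NM_009263, at 75.0% to 100% of its FPKM in both populations.

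**Figure D4:**
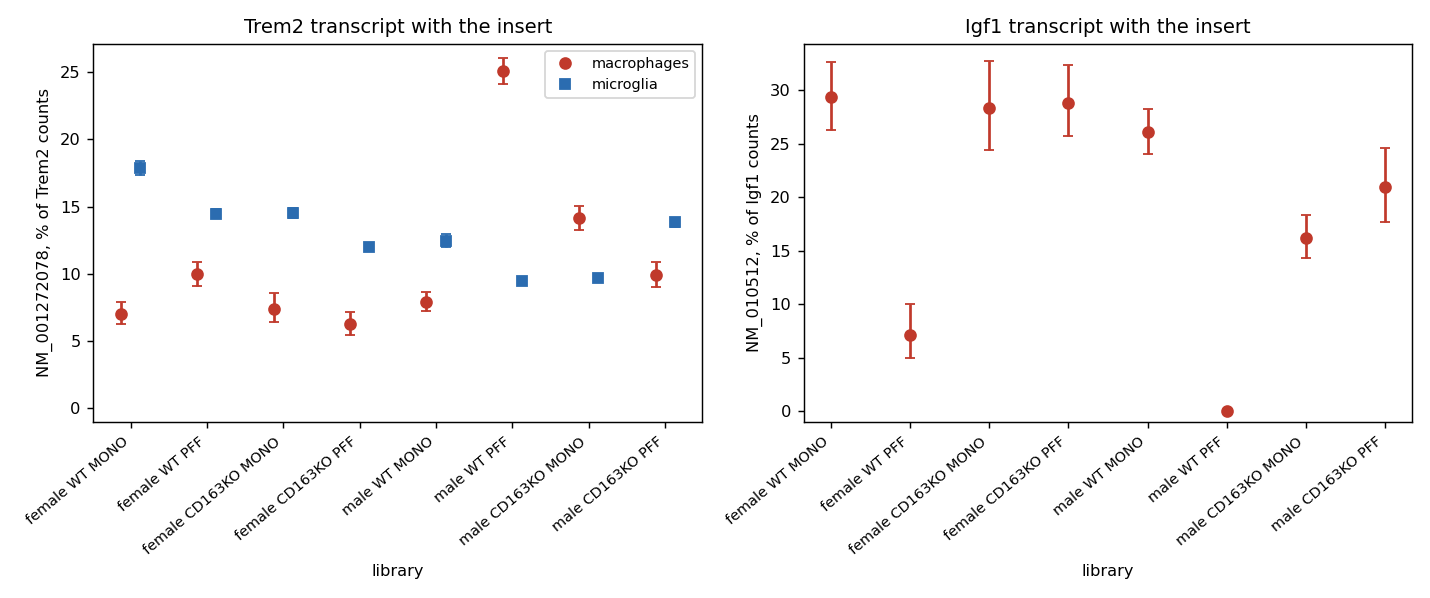
Share of estimated counts, in percent, that went to the transcript with the insert, for Trem2 in macrophages (red circles) and microglia (blue squares) and for Igf1 in macrophages, 1 point per library with its 95% Wilson interval (counting error only). Male WT PFF macrophages are highest for Trem2, at 25.1%, and at 0 for Igf1.

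Genes most like each of the 7 were found by Pearson's correlation of log2 TMM-scaled counts (CPM) over the 7 libraries of a population, among 5321 genes in microglia and 3165 in macrophages with a mean of at least 10 FPKM. For Trem2 in microglia these were C1qc (0.998), a complement gene of microglia, and H2-T23 (0.995), and in macrophages Grn (0.978), which encodes progranulin, F11r (0.978) and Csf1r (0.970), the receptor that keeps macrophages and microglia alive. For Tyrobp they were Tcn2 (0.992) and Aldoa (0.989) in microglia and Cox7a2 (0.993), Sh3bgrl3 (0.992) and Ifitm3 (0.991) in macrophages. Spp1 in macrophages had lower values, with Stx7 (0.918), Itgb2 (0.892) and Syngr1 (0.883) nearest.

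Igf1 in macrophages was nearest to Tmem30a (0.988), Atg12 (0.985) and Akr1c13 (0.984), and Cd9 to Capzb (0.974), Mapkapk3 (0.964) and Itgb2 (0.955). In microglia Cd9 was nearest to Tecr (0.993), Trf (0.990) and Dlgap4 (0.989), Cst7 to Aifm1 (0.978), Sel1l (0.969) and Ciao2b (0.965), and Igf1 to Igfbp2 (0.970), a binding protein of insulin-like growth factors. With 7 points that share depth and composition, and a library apart among them, these values are a description of the libraries.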

How the data were processed

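The authors removed rRNA and low-quality reads, mapped with Bowtie2 to mm10 and estimated transcripts with RSEM (versions not given in the sources used here). The deposited estimated counts are not normalized, and the deposited FPKM are scaled by the authors to transcript length and assigned reads. Each table lists RefSeq transcripts above 0, and unlisted ones were taken as 0. Of 27787 transcripts, 160 without a symbol (at most 0.142% of counts) were left out. Transcripts were summed to 18576 genes with names and coordinates of GRCm38.p6, and transcript and promoter sequences are those of the GENCODE and RefSeq tables of that build. Triplicates were sequenced, and whether a table is 1 of them or a pool is not given in the sources used here, nor is the batch of a library.

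Estimated counts were rounded and tested with edgeR 4.0.16 (TMM, filterByExpr, quasi-likelihood, R 4.3.3). Populations were compared in 14 libraries with sex, genotype and injection as a block, since both populations of a pair share that group of mice. Treatment, genotype and sex were fitted per population in 7 libraries with additive terms, and an interaction term was added for treatment by genotype. A gene was called at an adjusted p of at most 0.05 and a log2 fold change of at least 1. Alternatives were all 16 libraries, other scaling, DESeq2 1.42.0, limma 3.58.1 on log2(FPKM + 1), + 0.1 or + 5, other filters, no limit on the fold change, no block, no term for sex, and each library or pair left out, with a block of matched libraries and levels as TMM-scaled CPM added later. The members, the lists and the tests were chosen with earlier results of these data known. The population and treatment fits were tried on simulated counts in which no library stood apart in composition. The genotype, sex and interaction fits were not tried in that way. Tables and figures used Python 3.11.15, pandas 2.3.3, scipy 1.17.1 and matplotlib 3.10.9. Named were the 7 genes, Cd163, genes among the 3 most like each (some are not reported here), and list members called or with the largest change (at most 4 per list), beside Axl, Itgax and Clec7a, Apoe under treatment, the marker Mrc1 and Cst3, named after their values were seen. A value of 95% is meant by interval throughout.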

Additional observations from a re-analysis of the deposited data

Results flagged for a closer look

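Among 14 sets of 8 libraries (7 genes in 2 populations), of which chance puts about 1 in 20 past Dixon's limit, 2 had a library far from the other 7. Trem2 in macrophages stood at 402.73 FPKM in male WT PFF, with the next library at 279.45 FPKM and a gap of 0.53 of the range. Igf1 in macrophages stood at 24.7 FPKM in male WT PFF, with the next at 11.86 FPKM and a gap of 0.583 of the range. Both are the same library, which stood apart in composition and in its Mrc1 level. In TMM-scaled CPM it lay at 221 for Trem2, with female WT PFF highest at 429.7, and at 90.0 for Igf1, with the next at 65.4.

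Tyrobp was higher after PFF than after MONO in 3 of 3 pairs of microglia and lower in 3 of 3 pairs of macrophages, without male CD163KO MONO (FPKM). In TMM-scaled CPM the female WT macrophages went the other way, with 2712 after PFF and 1899 after MONO. The difference between the populations was not tested.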

How the results depend on the processing

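Trem2, Cd9 and Igf1 stayed called between the populations under 19 of 19 alternatives, and Spp1 under 18, with limma on log2(FPKM + 1) without a filter giving it an adjusted p of 0.0761. Tyrobp passed with DESeq2 (adjusted p = 0.00613), with no replicate block (0.0223), without the male WT PFF pair (5.61e-05 by edgeR) and without that pair and female CD163KO MONO (0.000162). The count of all genes called, 2311, moved to 6306 with library totals, 4262 with DESeq2, 5737 with limma on log2(FPKM + 1), 6494 with + 0.1, 4840 with limma on log2(FPKM + 1) without a filter and 3696 without male WT PFF and female CD163KO MONO, which was added after seeing the data. Leaving out each pair gave 1706 to 4043, the highest without male WT PFF. Of calls, 36.8% were higher in microglia, against 90.5% with library totals, 54.2% with DESeq2 and 89.6% with limma on log2(FPKM + 1). Without the replicate block the count was 2710. A replicate block of matched libraries in treatment and genotype, also added after seeing the data, called 0 of the 7 genes. In treatment, genotype and sex, 0 of the 7 genes were called under each alternative, while counts of all genes reached 46. In the interaction they reached 432 in microglia (without female WT MONO) and 3377 in macrophages (without female WT PFF), where 1 of the 7 genes, Gpnmb, was called. The cause was not tested. Counts of Gpnmb in both populations and of Igf1 in microglia are low.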
